A study of Sus scrofa with 2 samples.

Results

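Within the pig renal cortex, a set of tubule nuclei was rich in the endocytosis receptors LRP2 and CUBN and also carried transcripts of POU2F3, SLC5A8, NRG3 or BRINP1. They are called POU2F3/NRG3 nuclei here, after the most frequent genes of the set. A nucleus was a member when LRP2 and CUBN together reached 30, and POU2F3, SLC5A8, NRG3 and BRINP1 together (the 4-gene sum) reached 5, unique molecular identifiers (UMIs, counted mRNA molecules) per 10000 UMIs of that nucleus. Of 12955 nuclei with 500 to 6000 detected genes, 340 were members, 85 of 7035 in the unperfused and 255 of 5920 in the perfused library. The levels of the genes that chose them are given below as a description and support nothing.

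The study looked for mechanosensitive signalling in the kidney, and profiled single nuclei from the cortex of pig kidneys (Sus scrofa) perfused outside the body. The kidneys came from a slaughterhouse, were flushed and were stored for about 2 h at 4 °C. The unperfused library was made from cortex taken before perfusion, and the perfused library from cortex taken 120 min after the start of perfusion at 100 mmHg and 37 °C. Each condition is 1 library of nuclei from snap-frozen tissue, and age, breed and the number of pigs behind each library are not given in the sources used here, so that perfusion, kidney and library cannot be told apart. No test across kidneys is possible, and every interval below is an exact 95% interval that covers counting error only. The libraries held 34415254 and 35525592 UMIs in 7179 and 6205 barcodes. Both libraries shared 14 barcodes, none of which was a member.

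Proximal tubule cells reabsorb most of the filtered solutes, and LRP2 (megalin) and CUBN (cubilin) are the receptors by which their brush border takes up filtered protein. The tubule changes along its length, from an early convoluted stretch with high-capacity carriers of glucose, lactate and amino acids to a straight stretch with high-affinity carriers. SLC5A8 is a sodium-coupled monocarboxylate carrier that takes up lactate, SLC5A12 is its low-affinity relative, NRG3 is a neuregulin ligand of the receptor ERBB4, and POU2F3 is a POU-domain transcription factor best known as the master regulator of chemosensory tuft cells. BRINP1 is a gene of the nervous system that slows the cell cycle.

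In the files the 4 genes are ENSSSCG00000028237 (POU2F3), ENSSSCG00000000871 (SLC5A8), ENSSSCG00000010344 (NRG3) and ENSSSCG00000005504 (BRINP1). POU2F3 was the most frequent of them in the perfused members, with a UMI in 75.3% of unperfused and 89.8% of perfused members, and NRG3 had one in 81.2% and 79.6%. SLC5A8, which the working name of these nuclei puts first, had a UMI in 54.1% and 60.4%, and BRINP1 in 25.9% and 29.0%. At least 2 of the 4 genes were seen in 78.8% of unperfused and 84.7% of perfused members, with medians of 9 and 15 UMIs of the 4 genes per nucleus. SLC5A8 and NRG3 were seen in the same nucleus in 42.4% of unperfused (36 of 85) and 47.8% of perfused members (122 of 255), and POU2F3 and NRG3 in 57.6% (49 of 85) and 70.2% (179 of 255), so that neither pair describes every member and the name used here is a short form only. In endothelial nuclei, which should lack these genes, POU2F3 had a UMI in 0.264% and 0.650% and NRG3 in 1.76% and 0.910% of nuclei, at median depths of 1934 and 2265 UMIs against 5548 and 7201 in the members.

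The thresholds did not fall into a gap. The lowest 4-gene sums among the members were 5.05, 5.28 and 5.38 in the unperfused library and 5.02, 5.12 and 5.29 in the perfused one, and the highest among LRP2- and CUBN-rich nuclei outside the set were 4.86, 4.81 and 4.56, and 4.71, 4.67 and 4.52. Across members the sum ran from 5.05 through a median of 15.0 to 52.6 in the unperfused library, and from 5.02 through 20.4 to 70.8 in the perfused one. The lowest LRP2 and CUBN sums of members were 33.6 and 31.2, and the highest just below that threshold, in nuclei that passed the 4-gene sum, were 29.0 and 29.6. A 4-gene sum of 5 or more was also seen in 77 of 4726 (1.63%) and 63 of 4136 nuclei (1.52%) that were not rich in LRP2 and CUBN.

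Members were compared with 3 other groups of nuclei rich in LRP2 and CUBN and below the 4-gene threshold. Early proximal tubule (PT) nuclei carried SLC5A12 and SLC7A8 (1890 unperfused, 1203 perfused), later PT nuclei carried SLC22A2 and ADCY8 (154 and 192), and 180 and 134 nuclei carried neither pair at 5 UMIs per 10000. The 3 groups together are called the remaining rich nuclei. Depth was close to that of early PT nuclei, with medians of 5548 and 7201 UMIs against 5725 and 7243, and later PT nuclei had 4787 and 5615. Mitochondrial UMIs made up 0.0656% and 0.122% of the members' UMIs and 0.0584% and 0.130% of those of early PT nuclei, and no member was over the 7% limit of the study.

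Members made up a larger share of the perfused than of the unperfused library. They were 1.21% of unperfused nuclei (95% exact Clopper-Pearson interval 0.966 to 1.49) and 4.31% of perfused nuclei (3.80 to 4.86). Among the LRP2- and CUBN-rich nuclei alone the shares were 3.68% (85 of 2309) and 14.3% (255 of 1784), while early PT nuclei went from 81.9% to 67.4% and later PT nuclei from 6.67% to 10.8%. The perfused share was 3.57 times the unperfused one. With every nucleus thinned to 2000 UMIs the shares were 2.56% and 5.88%, a ratio of 2.29, and with a 4-gene sum of at least 20 they were 0.384% and 2.21%, a ratio of 5.77. The perfused share was the larger one under all 13 alternatives that could change it, but with 1 library per condition perfusion and the piece of cortex cannot be told apart.

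**Figure D1:**
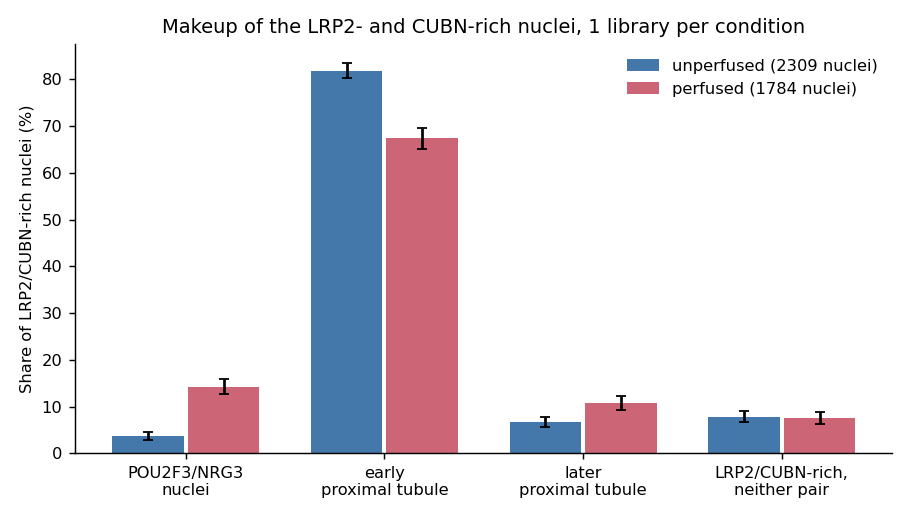
Share (%) of the LRP2- and CUBN-rich nuclei of each library that fell into each group, with exact 95% binomial intervals (counting error only). The POU2F3/NRG3 nuclei were 3.68% of unperfused and 14.3% of perfused rich nuclei, and early proximal tubule nuclei 81.9% and 67.4%.

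The label of the group was then read against markers. Of the genes in its working list that the rule did not use, ETNPPL (ENSSSCG00000009144), which breaks down phosphoethanolamine, was at 221 CPM (counts per 1000000, the summed UMIs of a gene over the group's total) in unperfused and 351 CPM in perfused members. It was at 6.20 and 15.6 CPM in early PT nuclei and at 58.7 and 93.1 CPM in later PT nuclei. SLC23A3 (ENSSSCG00000029694), an orphan member of the ascorbate transporter family, was at 403 and 523 CPM in members, 20.2 and 24.9 in early PT and 111 and 116 in later PT nuclei. Of the 3 groups, members had the highest level of both genes in either library, with later PT nuclei next. SLC23A3 had a UMI in 67.1% and 85.1% of members, and in 0.880% and 2.47% of endothelial nuclei. Both genes belong to a marker list picked from these libraries, and they are no independent evidence of the label.

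General PT genes were present in the members, in part at lower levels. Counted as described below, of 13 such genes SLC4A4, GATM, SLC7A9 and SLC13A3 were lower and KHK was higher than in the LRP2- and CUBN-rich nuclei outside the set, and the other 8 passed in neither direction, beside 3.33% higher and 3.09% lower over all genes. The transcription factor HNF4A, a master regulator of the PT, was at 524 and 513 CPM in members and at 497 and 459 CPM in early PT nuclei. The phosphate carrier SLC34A1 was at 1179 and 1092 CPM against 1326 and 1175, and PCK1, the rate-limiting enzyme of gluconeogenesis, at 2709 and 3521 CPM against 1837 and 1832. POU2F3 was also read beside 13 tuft cell genes in the files, of which 7 could be tested, with LTC4S higher (7.44 and 8.93 CPM against 3.26 and 4.12 in early PT nuclei) and GNAT3 lower, on 4 and 18, and 5 and 2 UMIs in members. In this list GNG13, PLCB2, CHAT, GFI1B and ASCL2 had no UMI in any member, which allows up to 5.58 and 1.49 CPM (3 counts). GNG13 and ASCL2 were at 0 in all groups of nuclei and CHAT was at most at 1.74 CPM in any, so that these genes do not tell the members from other nuclei. The list summed to 203 and 131 CPM against 199 and 110 in early PT nuclei, and its most abundant gene, DCLK1, made up 138 and 90.8 CPM. The urea carrier SLC14A2 and SH3GL3, both thin limb markers, also had no UMI.

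A gene was counted as higher or lower in the members when its CPM differed at least 2-fold, in the same direction, in both libraries from that of the remaining rich nuclei. By this count 455 of 13670 genes (3.33%) were higher and 422 (3.09%) were lower in members. Each library was read on its own, so a gene had to pass in both, and genes needed 20 UMIs in the larger sum of each. Early PT genes gave the most uniform result, since all 6 of the list were lower in members. SLC5A12 was at 275 and 311 CPM in members against 2142 and 2040 in early PT nuclei, and SLC7A8, a neutral amino acid exchanger of the basolateral side, at 258 and 368 CPM against 1794 and 2181. Both define the early PT group, but the other 4 genes do not. The glucose carrier SLC5A2 (SGLT2) was at 27.9 and 13.9 CPM in members and at 123 and 97.8 CPM in early PT nuclei, and SLC6A19, the main neutral amino acid carrier of the early brush border, at 5.58 and 7.44 against 78.1 and 68.2. SLC7A7 and SLC2A2 (GLUT2) followed the same order. Against later PT nuclei the list was mixed, since 1 of 5 genes tested was higher and 1 was lower in members. Over all genes 2.96% were higher and 1.46% lower in that comparison. SLC5A12 was at 300 and 299 CPM and SLC7A8 at 67.4 and 85.1 CPM in later PT nuclei.

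The late PT list did not single the members out as late PT. Of its 7 genes tested, SLC6A18, a neutral amino acid carrier, was higher (266 and 454 CPM in members, 61.5 and 60.9 in early PT nuclei). The amino acid carrier SLC7A13 was lower (359 and 346 CPM against 764 and 787), beside 3.33% higher and 3.09% lower over all genes. Against later PT nuclei none of the 6 genes tested was higher or lower, beside 2.96% higher and 1.46% lower over all genes. The high-affinity glucose carrier SLC5A1 (SGLT1) was at 292 and 266 CPM in members and 138 and 162 in early PT nuclei, which is past 2-fold in the unperfused library only. The group is therefore named by its genes and given no segment.

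Carriers were then read list by list, again beside 3.33% higher and 3.09% lower over all genes. SLC22A12 (URAT1), the urate exchanger of the brush border, was at 615 and 938 CPM in members, 284 and 316 in early PT and 358 and 569 in later PT nuclei, which is under 2-fold from the members. SLC22A11 (OAT4), an organic anion carrier that also moves urate, was at 37.2 and 69.0 CPM against 1.47 and 2.54 in early PT and 3.75 and 7.16 in later PT nuclei. SLC22A11 rests on 20 and 139 UMIs in members. Of the 13 genes of monocarboxylate and urate transport tested, 3 were higher (SLC5A8, which the rule used, SLC22A12 and SLC22A11) and 4 were lower than in the remaining rich nuclei. Of the 4, SLC16A1 (MCT1), a basolateral monocarboxylate carrier, was at 18.6 and 14.9 CPM in members and 101 and 91.3 CPM in early PT nuclei.

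The sugar and peptide carriers split in the same way. SLC5A10, a carrier of mannose and fructose, was at 231 and 290 CPM in members, against 96.3 and 102 in early PT and 106 and 118 in later PT nuclei. SLC15A2 (PEPT2), the high-affinity peptide carrier, was at 353 and 400 CPM against 142 and 126, and 176 and 182. Members had the highest level of both carriers in either library. The bicarbonate carrier SLC4A4 (NBCe1), which takes bicarbonate to the blood side, was at 1038 and 972 CPM in members against 2901 and 2746 in early and 2545 and 2363 in later PT nuclei. Carbonic anhydrase CA4 was lower as well, at 16.7 and 13.4 CPM against 53.6 and 58.4 in early PT nuclei. Of the 15 genes of glucose, phosphate and bicarbonate transport, 1 was higher and 4 were lower, beside 3.33% and 3.09% over all genes.

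The organic ion carriers showed 3 genes higher and 4 lower of 10 tested. Against later PT nuclei none of 9 was higher and 4 were lower, beside 2.96% higher and 1.46% lower over all genes. The cation carrier SLC22A2 (OCT2) was at 327 and 466 CPM in members, above the 94.1 and 97.7 CPM of early PT and below the 553 and 663 CPM of later PT nuclei, which it helps define. Its partner on the urine side, the extruder SLC47A1 (MATE1), was at 324 and 547 CPM against 97.9 and 92.6, and 348 and 433. SLCO4C1, an organic anion carrier, was at 260 and 239 CPM against 52.6 and 51.4, and 210 and 235. For these 3 genes members and later PT nuclei were within 2-fold of each other. The basolateral anion carriers SLC22A6 (OAT1) and SLC22A8 (OAT3) set the members apart from both PT groups. SLC22A6 was at 31.6 and 32.7 CPM in members, 191 and 169 in early PT and 145 and 102.97 in later PT nuclei, and SLC22A8 at 139 and 118 against 678 and 911, and 487 and 642. The pump ABCC2 (MRP2) was lower too.

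**Figure D2:**
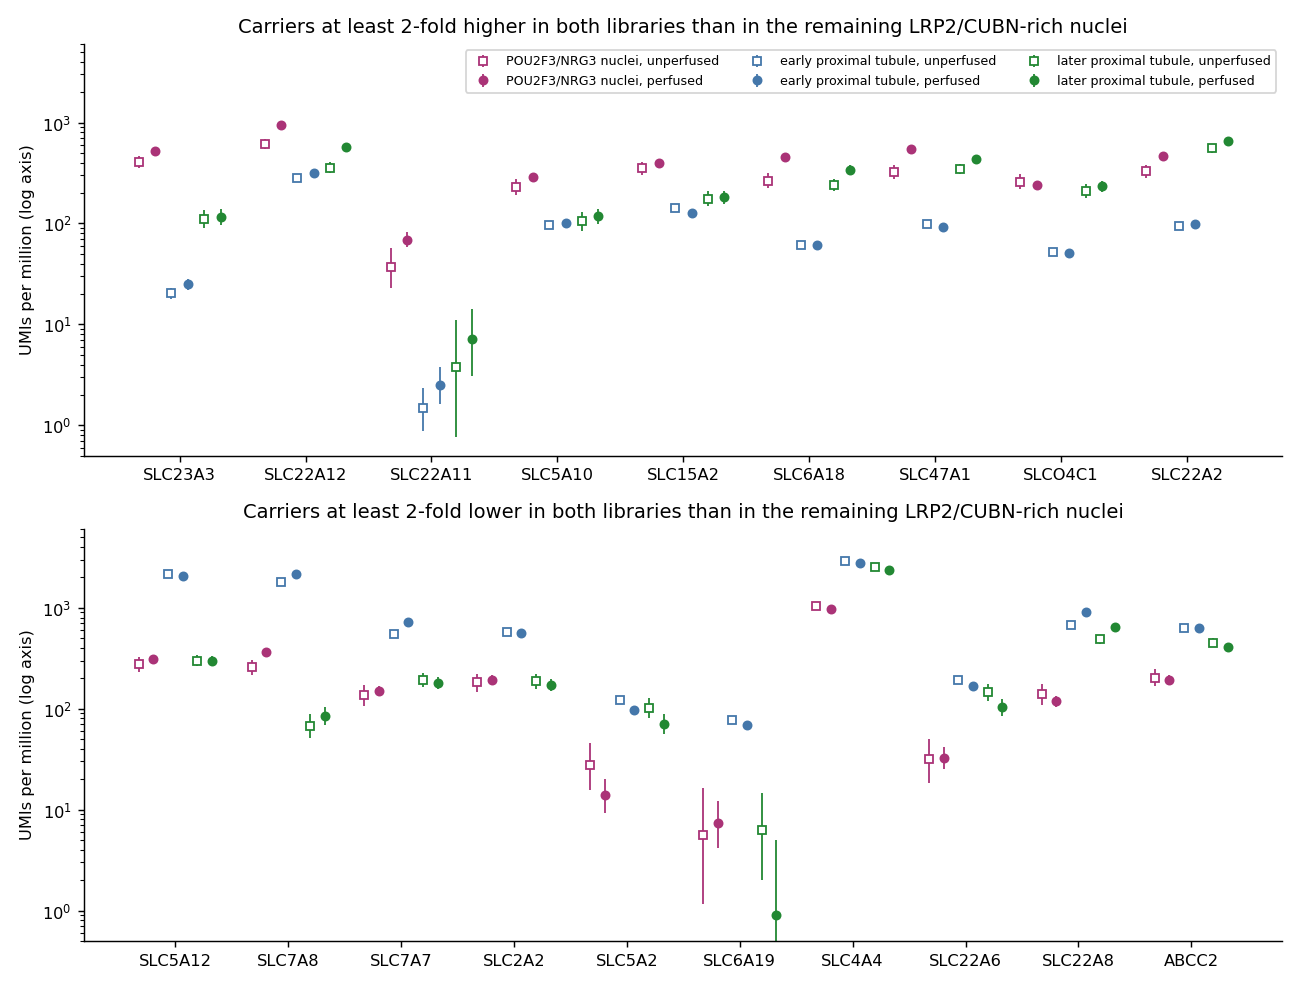
Summed level (CPM, log axis) of carriers in the POU2F3/NRG3 nuclei, early and later proximal tubule nuclei of each library, with exact 95% Poisson intervals. SLC23A3, SLC22A11, SLC5A10 and SLC15A2 were highest in the POU2F3/NRG3 nuclei of both libraries, and SLC5A2, SLC4A4, SLC22A6, SLC22A8 and ABCC2 were lowest in them.

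Metabolic genes were counted in the same way. Of 13 genes of fatty acid oxidation and peroxisomes and 12 of endocytosis tested, none was past 2-fold in both libraries, which beside 3.33% higher and 3.09% lower over all genes says nothing particular about these lists. Besides LRP2 and CUBN, the cubilin partner AMN was at 218 and 269 CPM in members against 166 and 177 in early PT nuclei, and the adaptor DAB2 at 2369 and 3030 against 3929 and 4320. Of 13 genes of amino acid metabolism, HPD, which acts in tyrosine breakdown, was higher (110 and 181 CPM against 22.2 and 28.4 in early PT and 101 and 181 in later PT nuclei), and GATM, DDC and BHMT were lower. GATM, which makes the precursor of creatine, was at 184 and 116 CPM in members and 813 and 550 in early PT nuclei, and at 180 and 111 CPM in later PT nuclei. KHK, the ketohexokinase that begins fructose breakdown, was at 121 and 192 CPM against 61.7 and 57.2, and 52.4 and 35.8. Among 9 genes of phosphoethanolamine metabolism, ETNPPL was the 1 that was higher, and none was lower.

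The ligands of the ERBB receptors were read next. Of 13 genes of this signalling tested, NRG2 was lower, and EREG, TGFA and BTC were higher, besides NRG3, which the rule fixed. Over all genes 3.33% were higher and 3.09% lower. The lower call of NRG2 rests on 1 UMI in unperfused members. EREG (epiregulin) was at 93.0 and 95.3 CPM in members, 3.43 and 2.54 in early PT and 22.5 and 16.1 in later PT nuclei. TGFA was at 59.5 and 82.4 CPM against 15.3 and 20.7 in early PT nuclei. BTC (betacellulin) was at 16.7 and 28.3 CPM against 6.61 and 8.24, on 9 and 57 UMIs. Later PT nuclei had BTC at 8.74 and 10.7 CPM, which is under 2-fold from the members in the unperfused library. Their receptors were not past 2-fold, with EGFR at 513 and 445 CPM in members and 455 and 436 CPM in early PT nuclei, and ERBB4, the receptor of NRG3, at 110 and 155 CPM against 98.2 and 137.

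Of 12 PT transcription factors tested, MAF was lower (78.1 and 66.5 CPM in members, 198 and 164 in early PT nuclei) and none was higher, which is near the shares over all genes (3.33% higher, 3.09% lower). POU2F1, the close relative of POU2F3, was at 130 and 135 CPM against 124 and 141.

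Genes with the largest difference in both libraries, outside the rule, were CPXM2, UNC93A, RBFOX3, EPHA7, TRHDE, GCM1, EREG, GRK3, GCGR, OAT, DCC and SORCS1 on the higher side. CPXM2, a carboxypeptidase-like protein, was at 359 and 426 CPM in members and at 3.67 and 3.70 CPM in early PT nuclei. TRHDE, a peptidase that degrades thyrotropin-releasing hormone, was at 363 and 460 CPM against 15.3 and 18.1, and the ephrin receptor EPHA7 at 231 and 317 against 5.79 and 8.66. OAT, a mitochondrial aminotransferase of ornithine, was at 229 and 261 CPM against 8.73 and 11.1, and GCGR, the glucagon receptor, at 106 and 103.2 against 6.04 and 4.65. These 5 genes were also at least 4 times higher in members than in later PT nuclei of the same library. On the lower side were RFESD, CCDC3, SLC6A19, C16orf89, MYOM2, CNNM1, CELF4, EPB41L3, BNC2, CHST11, CSMD3 and CACNA1I. Of these, EPB41L3, a membrane skeleton protein, was at 562 and 642 CPM in members, 3773 and 4588 in early PT and 1899 and 2093 in later PT nuclei, and the zinc finger gene BNC2 at 346 and 321, 2208 and 2335, and 1829 and 1732. RFESD, CCDC3, CNNM1 and CELF4 rest on 1 UMI each in unperfused members. Of the 12, 5 had enough UMIs to be counted against later PT nuclei, and EPB41L3, BNC2 and CHST11 were lower there while MYOM2 and CSMD3 were not. The low levels of C16orf89 (5.58 and 8.93 CPM) were not below those of later PT nuclei (4.99 and 2.69 CPM). In the weakest alternative the unperfused log2 ratio over the remaining rich nuclei was -0.08 for CCDC3, -0.72 for MYOM2 and -0.94 for C16orf89. These 3 values are under 2-fold. For EPB41L3 the unperfused ratio ran from -6.78 to -1.08 over the alternatives.

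Against each PT group on its own, 494 of 13094 genes (3.77%) were higher and 462 (3.53%) lower in members than in early PT nuclei, and 186 of 6292 (2.96%) were higher and 92 (1.46%) lower than in later PT nuclei, where fewer genes reached 20 UMIs. Fewer nuclei in the later PT group make those shares hard to compare. Across 28 points (14 groups of nuclei in 2 libraries, among them the members themselves), the genes whose log2(CPM + 1) followed that of the 4-gene sum most closely were KIZ (Pearson r = 0.85), PRDM10 (0.82), CDK5RAP2 (0.81), SFRP2 (0.81) and EPHA7 (0.80). KIZ, a centrosome gene, was at 110 and 104 CPM in members against 38.4 and 40.7 in early PT nuclei, and CDK5RAP2, another centrosome gene, at 247 and 271 against 19.2 and 22.0. The members are among the points and hold the highest sums because that sum chose them, so these r values are a description only. The points share libraries, and on the log scale low levels in the other groups weigh in these r values as well as the high ones in members.

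Members were not uniform. By the marker pairs of the comparison groups, 15 of 85 unperfused and 32 of 255 perfused members also passed the early PT rule (the early pair at 5 or more and not below the later pair), 25 and 111 passed the later PT rule, and 45 and 112 passed neither. Members that passed the early rule had SLC5A12 at 1054 and 1681 CPM, SLC22A8 at 527 and 504 CPM and SLC23A3 at 148 and 209 CPM. Members that passed neither had SLC5A12 at 25.9 and 29.1 CPM, SLC22A8 at 22.2 and 17.5 CPM and SLC23A3 at 458 and 572 CPM. The SLC5A12 levels restate how the subsets were split. Over all members, SLC5A12 had a UMI in 28.2% of unperfused and 26.7% of perfused members, against 98.1% and 98.0% of early PT nuclei and 19.3% and 14.8% of endothelial nuclei.

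**Figure D3:**
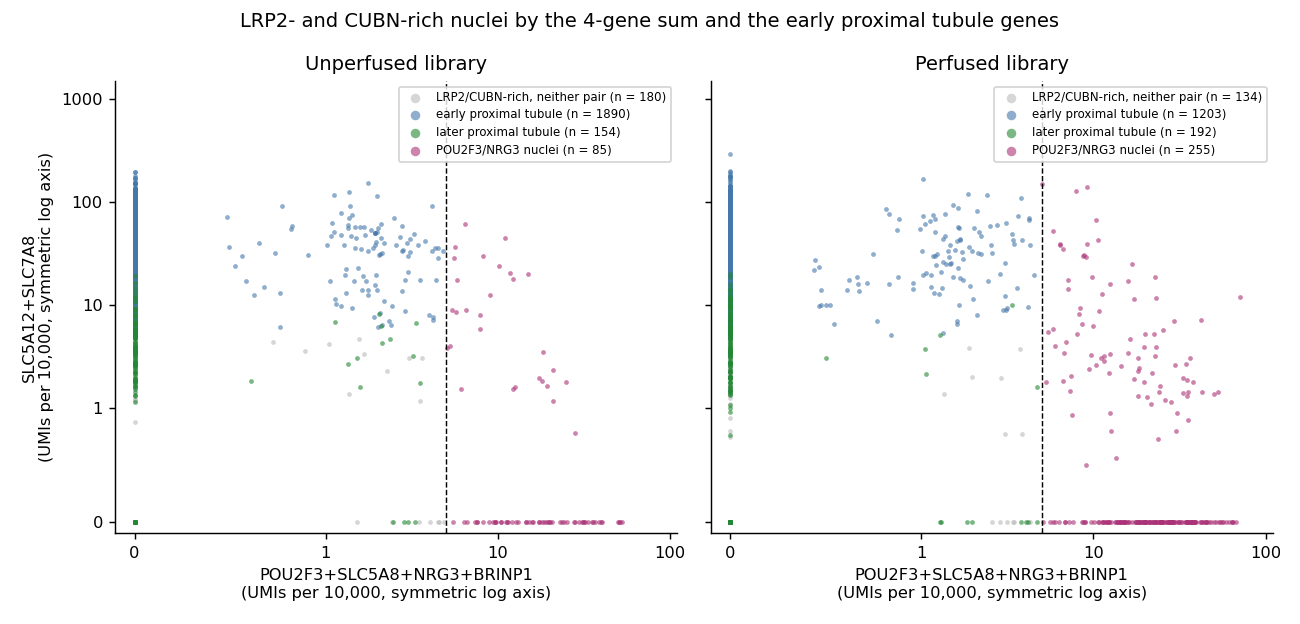
Each point is 1 LRP2- and CUBN-rich nucleus, placed by its 4-gene sum (x axis) and its SLC5A12+SLC7A8 sum (y axis), both in UMIs per 10000 on symmetric log axes, with the threshold of 5 dashed. Early proximal tubule nuclei fill the left edge, and 69 of 85 unperfused and 218 of 255 perfused members lie below 5 on the y axis.

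Levels therefore changed along the 4-gene sum. In nuclei with a sum of 0, SLC5A12 reached 1930 CPM before and 1795 CPM after perfusion. It was at 554 and 991 CPM at a sum of 5 to 10, at 242 and 267 CPM at 10 to 20, and at 21.3 and 46.7 CPM at 20 to 40, which is under the 112 and 79.3 CPM of endothelial nuclei. SLC7A8 and SLC22A8 were ordered alike, with SLC22A8 at 653 and 874 CPM at a sum of 0 and at 14.2 and 15.1 CPM at 20 to 40. ETNPPL was at 9.35 and 22.4 CPM at a sum of 0, at 105 and 165 CPM at 5 to 10, and at 306 and 472 CPM at 20 to 40. SLC22A12 was at 288 and 334 CPM at 0 and at 740 and 1090 CPM at 20 to 40, and HNF4A stayed between 410 and 614 CPM in all 6 ranges of both libraries. Unperfused nuclei numbered 26, 32, 22 and 5 from the lowest to the highest range of members, and perfused nuclei 45, 79, 104 and 27, so that the top unperfused range holds too few nuclei to read. None of these genes except the 4 of the sum took part in the rule.

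**Figure D4:**
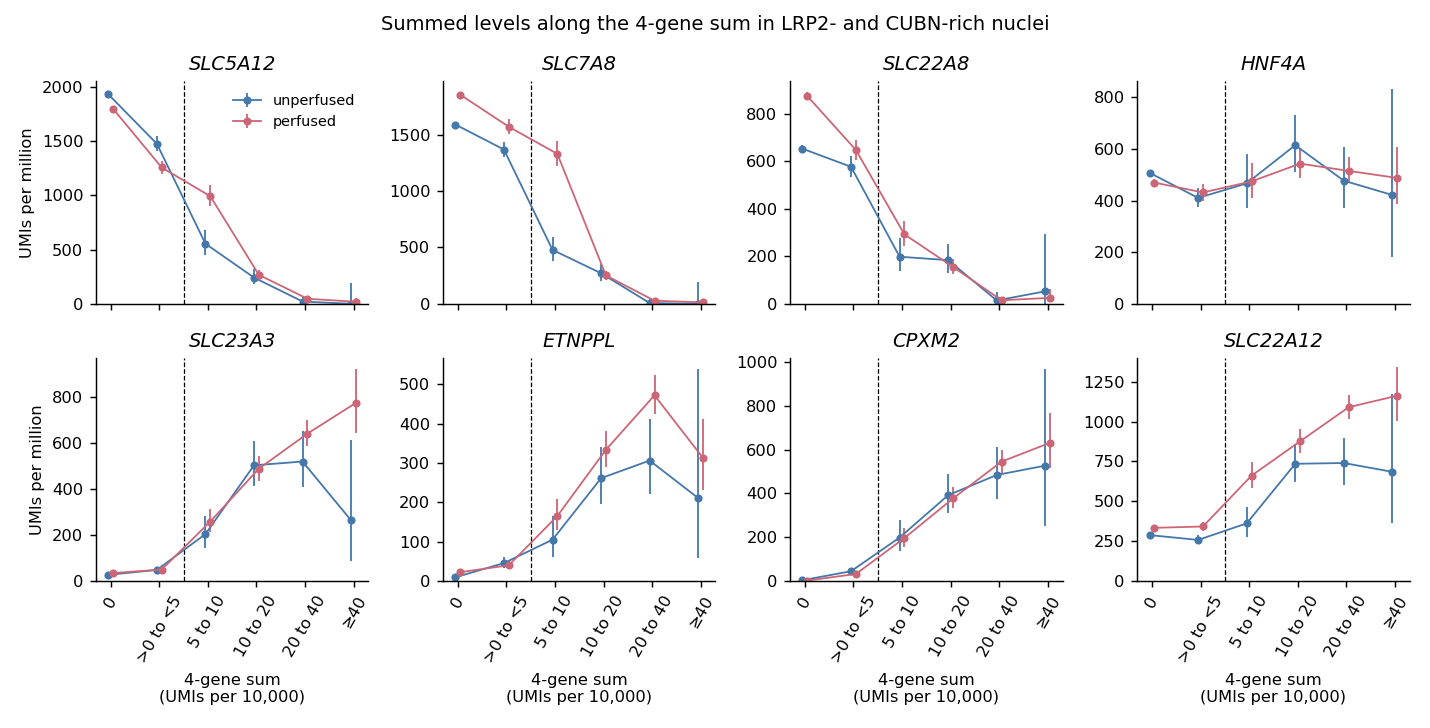
Summed level (CPM) of 8 genes in LRP2- and CUBN-rich nuclei, binned by the 4-gene sum (UMIs per 10000), in the unperfused and perfused library, with exact 95% Poisson intervals and the threshold of 5 dashed. SLC5A12, SLC7A8 and SLC22A8 were lower at each higher bin up to 20 to 40, SLC23A3, ETNPPL, CPXM2 and SLC22A12 were higher above the threshold than below it, and HNF4A stayed between 410 and 614. The top unperfused bin holds 5 nuclei.

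RNA of other lineages was present in the members, as in the PT nuclei beside them. A UMI of at least 1 of 10 genes of other lineages (such as SLC12A1, UMOD and FLT1) was found in 80.0% of unperfused and 73.3% of perfused members, against 67.5% and 65.9% of early PT nuclei. The 5 thick ascending limb markers summed to 2300 and 2561 CPM in members, 1460 and 1803 in early PT nuclei, 2280 and 2870 in later PT nuclei, and 13054 and 15359 in thick ascending limb nuclei. CLDN10, which PT nuclei also carry, made up 1517 and 1779 CPM of the members' sum. SLC12A1, the defining sodium carrier of the thick limb, was at 921 CPM in unperfused members with a sum of 5 to 10 and at 160 CPM in those with 10 to 20, and at 436 and 509 CPM in the same ranges of perfused members. Of its 219 UMIs in unperfused members, 77 came from 1 nucleus. Scrublet called 11 of 85 (12.9%) and 43 of 255 (16.9%) members doublets, against 270 of 1890 and 168 of 1203 early PT nuclei. With every nucleus that held a UMI of those 10 genes left out, 17 and 68 members remained, and the log2 ratios over the remaining rich nuclei were 3.42 and 4.07 for SLC23A3, -3.11 and -2.31 for SLC5A12 and -2.32 and -3.01 for SLC22A8. SLC22A12 was at 0.84 and 1.28, which is under 2-fold in the unperfused library.

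Perfusion was then read within the members, as CPM in the perfused over the unperfused library. A gene was counted when this ratio was at least 2-fold and its 95% interval left out no change. Of 9879 genes with 20 UMIs or more, 151 (1.53%) were higher and 437 (4.42%) were lower in perfused members, and the median log2 ratio over all genes was -0.03. Scaled by edgeR's TMM factors this median was 0.12 and the counts became 263 higher and 314 lower, and with DESeq2 size factors 253 higher and 320 lower. Early PT nuclei had 145 of 15886 genes (0.913%) higher and 1264 (7.96%) lower, and later PT nuclei 131 of 8706 (1.5%) and 378 (4.34%). The counts cannot be compared directly, since the groups differ in nuclei and UMIs.

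The genes with the lowest ratios in members were, with 1 exception, also lower in the PT nuclei beside them. PLPPR1, a phospholipid phosphatase-related membrane protein, went from 3447 to 1161 CPM in members (log2 ratio -1.57, 95% interval -1.66 to -1.48), with -1.65 in both early and later PT nuclei. The fatty acid elongase ELOVL6 went from 945 to 338 CPM (-1.48), with -1.36 in early and -1.30 in later PT nuclei. The glutamate carrier SLC1A2 went from 296 to 86.3 CPM (-1.78, against -1.59 and -1.76), and GPR161, NOD1, CACYBP, CSMD3, PPFIA2 and SYT1 had ratios between -2.08 and -1.50 in members. CSMD3, at -2.08, ranged from -4.00 with nuclei thinned to 2000 UMIs to -0.58 with a 4-gene sum of at least 20, where it was under 2-fold. In all 9 genes both PT groups had a ratio below -1. PTPRQ had the lowest ratio of all (-7.93), but 61 of its 65 UMIs in unperfused members came from 1 nucleus. Podocyte markers summed to 93.0 CPM in unperfused and 12.9 CPM in perfused members, and the 2 that could be tested were lower. The part of podocyte RNA in the lower ratios was not tested.

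On the higher side the named genes rest on few UMIs. All 10 of them, SPATA22 included, reached the minimum of 20 UMIs only in perfused members, so their place on this list supports nothing. ACTA2 (smooth muscle actin) had 1 UMI in unperfused and 64 in perfused members, that is 1.86 and 31.8 CPM (log2 ratio 4.09, 1.56 to 9.42), with 1.57 in early PT nuclei and, on 1 and 14 UMIs, 3.33 in later PT nuclei. TRDN was at 3.72 and 51.1 CPM (3.78, 1.89 to 6.85) and RGS6 had 2 and 57 UMIs (2.93, 1.01 to 6.01), with a ratio of -1.59 once nuclei with RNA of other lineages were left out. SPATA22 is the best counted of them, at 35.3 and 140 CPM (1.99), and its interval lay above 0 in early (1.90, 1.73 to 2.08) and in later PT nuclei (1.88 to 3.18) too. UQCRC1, a subunit of respiratory complex III, had 7 and 108 UMIs (2.04), and TRIM3 and ATP6V0A4, a subunit of the proton pump, had ratios of 1.88 and 1.81. With nuclei thinned to 2000 UMIs the ratios of UQCRC1, TRIM3 and ATP6V0A4 were 0.23, 0.45 and 0.38, under 2-fold, and that of ATP6V0A4 was 4.22 without the richest nuclei. In PDE1C, KIF26B and SLC26A7 a single perfused nucleus held 62 of 117, 43 of 109 and 101 of 108 UMIs. The ratios of PDE1C and KIF26B were -0.20 and -0.37 without called doublets, and 2.30 and 2.55 without the richest nucleus of each library. Without the richest nucleus of each library SLC26A7 went from 1.85 to -1.93, so that its higher level rests on 1 nucleus. SLC26A7 and ATP6V0A4 are genes of intercalated cells, whose markers summed to 37.2 and 40.7 CPM in members, with KIT the most abundant and SLC4A1, SLC4A9 and FOXI1 at 0 in the unperfused ones. Stromal markers, which include ACTA2, summed to 76.2 and 130 CPM, with FHL2 the most abundant in the perfused members, and their part in these ratios was not tested.

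A few well-counted PT genes, chosen after their values were seen, had a higher level in perfused members, all under 2-fold. PT genes as a whole went both ways. Of the 13 general PT genes 6 had a ratio above 0 and 7 below (median -0.01). Of 7 late PT genes tested, 5 were above and 2 below 0. MIOX, which breaks down inositol, was at 385 and 682 CPM in members (log2 ratio 0.82, 0.61 to 1.04), with -0.07 in early and -0.04 in later PT nuclei. SLC47A1 had a ratio of 0.76 (0.53 to 0.996) against -0.08 and 0.32, and SLC6A18 one of 0.77 (0.51 to 1.03) against -0.01 and 0.49. The differences between groups were not tested. SLC47A1 and SLC6A18 also varied with the 4-gene sum, on which perfused members lay higher (medians of 20.4 against 15.0). Restricted to a sum of at least 20 the ratios were 0.46 for MIOX, 0.56 for SLC47A1 and 0.73 for SLC6A18. POU2F3 itself went from 638 to 1001 CPM (0.65), SLC5A8 was at 301 and 300 CPM and NRG3 at 671 and 715 CPM, which the rule can shape.

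The study was about mechanosensitive signalling through the transcription factors MRTF and SRF, whose targets include actins and their partners. Of 11 targets tested in members, 2 (ACTA2 and FHL2) were higher and none was lower, beside 1.53% and 4.42% of all genes. The median log2 ratio was 0.58 against -0.03 over all genes. Both higher genes reached the minimum of 20 UMIs only in perfused members, and only 11 of the 20 listed targets could be tested. The count and the median therefore describe the tested targets and support nothing. ACTG1, cytoplasmic gamma actin, was at 104 and 166 CPM (0.67, 0.26 to 1.11), with 0.14 in early PT nuclei, and FHL2 at 16.7 and 44.7 CPM on 9 and 90 UMIs, 30 of them in 1 perfused nucleus. Both ACTA2 and FHL2 are also stromal markers, and stromal nuclei were 4.98% of the unperfused and 10.3% of the perfused library. ACTA2 also had a higher perfused level in other nuclei, such as thick ascending limb (4.34 and 15.6 CPM) and immune nuclei (95.7 and 396 CPM), but not in the rich nuclei with neither pair (48.5 and 25.1 CPM), and the part of stromal RNA in the count was not tested. The median was 0.23 over 20 targets in early PT and 0.20 over 10 in later PT nuclei. With the looser thresholds (20 and 3) the median in members was 0.12 over 14 targets, and the sign was kept under all 15 alternatives run for it.

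**Figure D5:**
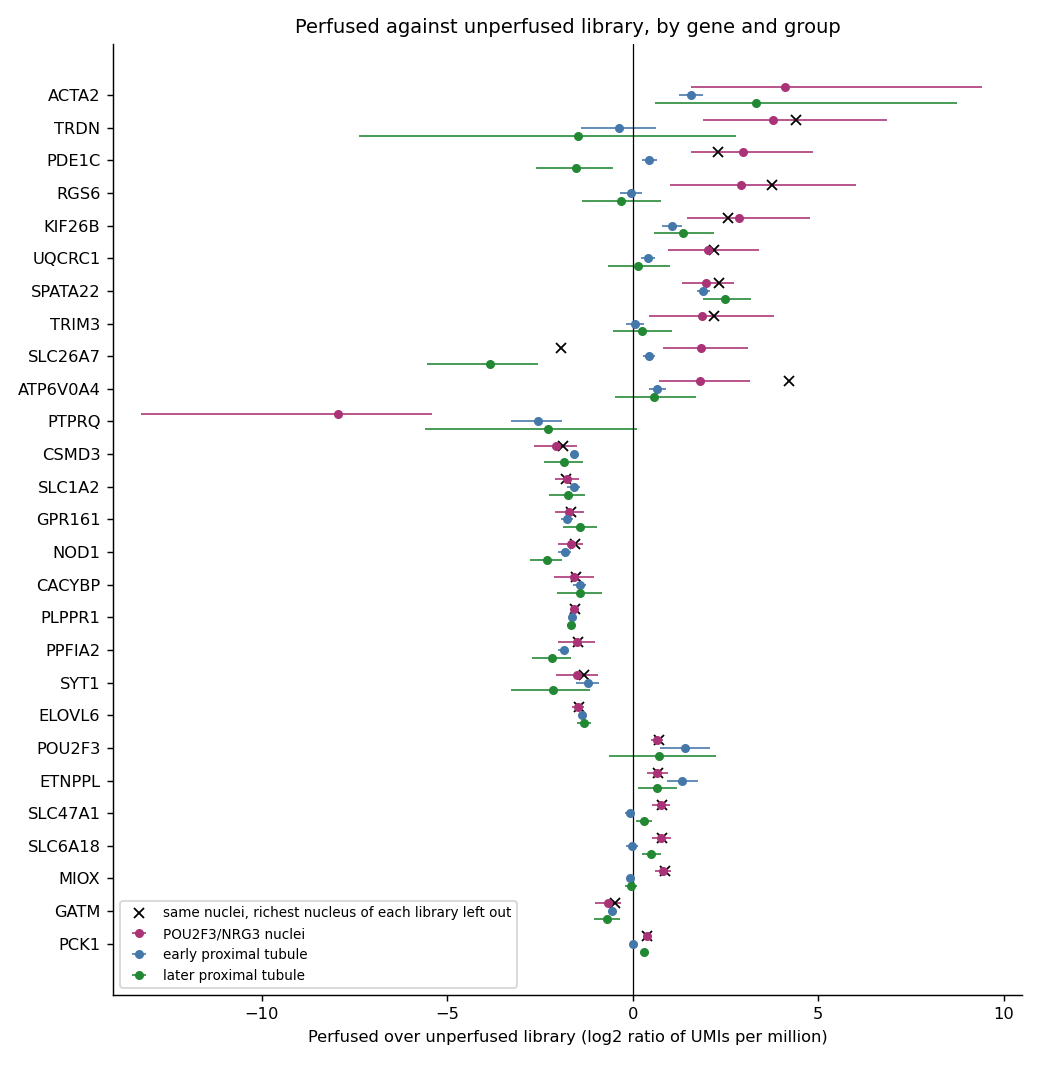
Log2 ratio of the perfused over the unperfused level for named genes in the POU2F3/NRG3 nuclei, early and later proximal tubule nuclei, with exact 95% intervals (counting error only); crosses give the first group without the richest nucleus of each library where both sums stayed above 0. The genes from CSMD3 to ELOVL6 were lower in all 3 groups, and SLC26A7 changed sign without 1 nucleus.

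Stress genes were read against the same shares of all genes, 1.53% higher and 4.42% lower. None of 11 heat shock genes was past 2-fold, with a median log2 ratio of -0.09 in members, -0.47 in early PT and -0.37 in later PT nuclei. DNAJB1, a co-chaperone that was singled out after its values were seen, was at 59.5 and 62.0 CPM in members (0.06, -0.51 to 0.67) with -1.19 (-1.38 to -1.01) in early and -1.52 (-2.14 to -0.93) in later PT nuclei. The difference between these ratios was not tested. Of 8 immediate early genes tested, JUN (24.2 and 49.1 CPM) and EGR1 (3.72 and 17.9 CPM, on 2 and 36 UMIs) were higher, and KLF6 was lower. JUN and EGR1 reached the minimum of 20 UMIs only in perfused members, so their calls support nothing. Without the richest nucleus of each library KLF6 was at -1.15 (-2.36 to 0.14) and no longer passed. Of the mitochondrially encoded genes, 3 of 10 were higher in members, and their median ratio was 0.72 against 1.18 in early PT and 1.16 in later PT nuclei. None of the 8 hypoxia genes and none of the 4 tubule injury genes tested was both past 2-fold and outside counting error, and CA9 had a log2 ratio of -1.04 (-2.17 to 0.16) on 11 and 20 UMIs.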

How the data were processed

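The authors deposited filtered UMI counts per gene and barcode, made with Cell Ranger 5.0.1 with intronic reads counted against a pig (Sscrofa) genome and gene annotation of Ensembl release 103; the counts are not normalized. The study's later steps, such as ambient RNA correction, are not in these counts. Barcodes with 500 to 6000 genes were retained, doublets stayed in (Scrublet, in scanpy 1.11.5, served as an alternative), and UMIs were summed per group and library and divided by the group's total. Log2 ratios have exact conditional binomial intervals, levels exact Poisson and shares Clopper-Pearson intervals, all at 95%. A count of 0 was set to 3 counts, as a bound. Python 3.11.15, numpy 2.4.6, scipy 1.17.1, pandas 2.3.3, and R 4.3.3 with edgeR 4.0.16 and DESeq2 1.42.0 (factors only) were used, and the scripts were tested on simulated data. No p-value was computed, since each condition is 1 library.

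The members and all gene lists were chosen with earlier results of these data known. Named were the rule genes and label markers, listed genes, the 12 genes with the largest log2 ratio in each direction against the remaining rich nuclei and the 10 in each direction between libraries, all with 50 or more UMIs in the larger sum, and the 5 most like the 4-gene sum. Of 31908 genes, 17376 had a symbol, 822 of them from a table of gene names. Of 329 listed genes 308 had a match, and the others were not analysed here. Some listed genes are not reported here.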

Additional observations from a re-analysis of the deposited data

Results flagged for a closer look

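Between the perfused and the unperfused library, 2 genes had log2 ratios of opposite sign in the POU2F3/NRG3 nuclei and in later PT nuclei, and the difference was not tested. PDE1C, a calcium-dependent phosphodiesterase, had 2.96 in members and -1.53 in later PT nuclei. SLC26A7, an anion exchanger, had 1.85 in members and -3.86 in later PT nuclei. In perfused members 62 of 117 UMIs of PDE1C and 101 of 108 UMIs of SLC26A7 came from 1 nucleus. Without the richest nucleus of each library the ratio was 2.30 (0.67 to 4.62) for PDE1C and -1.93 for SLC26A7. That of PDE1C was below 0 without called doublets and -2.59 without nuclei that held RNA of another lineage.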

How the results depend on the processing

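No paired analysis was possible because each condition is 1 library, and for the same reason no replicate could be left out. Shares of members in the unperfused and perfused library were 1.71% and 5.12% with thresholds of 20 and 3, 0.768% and 3.33% with 50 and 10, 0.924% and 3.58% with at least 3 UMIs from 2 of the 4 genes, and 2.56% and 5.88% with nuclei thinned to 2000 UMIs. Without POU2F3 in the sum they were 0.896% and 3.31%, and without NRG3 0.896% and 3.65%. With a sum of at least 20, chosen after seeing the data, they were 0.384% and 2.21%. The perfused share was 8.12% without nuclei that held RNA of another lineage and 3.68% without members past 5 for SLC5A12 and SLC7A8, the latter also added after seeing the data. Against the remaining rich nuclei, genes higher numbered 210 when thinned, 1769 with no minimum beyond 4 UMIs and 242 with a minimum of 100, and genes lower 256 without other-lineage nuclei and 170 when thinned. Between libraries, genes higher numbered 95 without other-lineage nuclei, 263 with TMM, 253 with DESeq2 factors and 33 with a minimum of 100 UMIs. Genes lower numbered 179 without other-lineage nuclei, 223 when thinned, 771 with no minimum, 56 with a minimum of 100 and 236 with a sum of at least 20. Ratios that changed sign were PDE1C (-0.20), KIF26B (-0.37) and SLC26A7 (-2.37) without called doublets, PDE1C (-2.59) and RGS6 (-1.59) without other-lineage nuclei, and SLC26A7 (-1.93) without the richest nuclei, an alternative added after seeing the data. Fewer nuclei enter the alternatives that changed a sign, by construction. The cause of the changes in this section was not tested.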
